A study of Mus musculus with 6 samples.

Results

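The 6 globin genes examined here were Hba-x, Hba-a1 and Hba-a2, which encode alpha-type chains, and Hbb-y, Hbb-bh1 and Hbb-b1, which encode beta-type chains. They were chosen by name, and all 6 were among the 1577 genes of the deposited table, which lists only genes that the authors called changed between hypomorphic and control hearts. Whole hearts were taken at E11.5 from C57BL/6 embryos of an Nkx2-5 hypomorphic line, in which the cardiac transcription factor NKX2-5 is expressed at a reduced level. One group was 3 hypomorphic hearts and the other 3 littermate control hearts, labelled WT. The methods name a gfp allele and an IRES-Cre allele of Nkx2-5, but which alleles each heart of either group carried is not given in the sources used here. The hearts were sequenced whole, with whatever blood they held.

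Hemoglobin is built from pairs of alpha-type and beta-type chains, each carrying a heme. In the mouse the alpha-type genes lie together on chromosome 11 and the beta-type genes on chromosome 7, with the embryonic genes upstream of the adult ones. Hba-x encodes the embryonic zeta chain, and Hbb-y and Hbb-bh1 encode the embryonic epsilon-y and beta-h1 chains. These embryonic genes are active in primitive red cells, which arise in the yolk sac and circulate through the early heart. Hba-a1 and Hba-a2 encode the adult alpha chains, which primitive red cells also make, and Hbb-b1 encodes an adult beta chain that is typical of definitive red cells. As primitive red cells mature, Hbb-bh1 gives way to Hbb-y and Hba-x to the adult alpha genes.

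In the mm9 build with the GENCODE M1 annotation, each gene had 3 exons. The alpha-type genes lay on the plus strand, Hba-x at chr11:32176400-32178116, Hba-a1 at chr11:32183511-32184465 and Hba-a2 at chr11:32196489-32197301. The beta-type genes lay on the minus strand, Hbb-y at chr7:111000259-111001754 and Hbb-bh1 at chr7:110990150-110991678. The entry that the deposited table calls Hbb-b1 carries the identifier ENSMUSG00000073940, which GENCODE M1 places at chr7:110961038-110962510 and names Hbb-b2. GENCODE M1 gives the name Hbb-b1 to ENSMUSG00000052305 at chr7:110975048-110976610. Which of the adult beta genes the entry counts is therefore uncertain, and Hbb-b1 below means the entry of that name.

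The first 90 coding bases show how far reads of the family can be told apart. They are from the GENCODE M1 transcripts, read 5′ to 3′, and capitals mark bases that differ from Hba-a1 among the alpha-type genes and from Hbb-b1 among the beta-type genes.
Hba-a1: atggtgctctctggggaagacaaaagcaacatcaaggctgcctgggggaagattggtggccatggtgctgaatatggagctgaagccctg
Hba-x: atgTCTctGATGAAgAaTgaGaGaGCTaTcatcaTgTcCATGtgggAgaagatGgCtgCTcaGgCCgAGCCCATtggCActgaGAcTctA
Hbb-b1: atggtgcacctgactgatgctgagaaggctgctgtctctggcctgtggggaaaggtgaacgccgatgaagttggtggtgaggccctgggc
Hbb-y: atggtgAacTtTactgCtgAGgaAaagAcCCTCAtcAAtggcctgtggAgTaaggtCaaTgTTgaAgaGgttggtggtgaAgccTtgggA
Hbb-bh1: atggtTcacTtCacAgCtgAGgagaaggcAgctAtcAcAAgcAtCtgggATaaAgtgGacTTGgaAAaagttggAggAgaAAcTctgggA
Over this stretch Hba-x differed from Hba-a1 at 44 bases, and Hbb-y and Hbb-bh1 differed from Hbb-b1 at 26 and 29 bases. Hba-a2 was identical to Hba-a1 here, and over the whole coding sequence they differed at 1 of 429 bases, with 87.1% of 50-base windows shared. Reads of Hba-a1 and Hba-a2 are thus hard to assign, and the split between them is uncertain. ENSMUSG00000073940 and ENSMUSG00000052305 likewise differed at 1 of 444 coding bases. No 50-base coding window was shared between Hba-x and Hba-a1, or between any of Hbb-y, Hbb-bh1 and Hbb-b1. Embryonic and adult-type genes thus shared no exact window of that length in their coding sequences. Untranslated parts and near matches were not compared, so whether some reads match both was not tested.

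The 150 bases before the annotated start are printed for the members matched in the RefSeq promoter table of GRCm38.p6, to show the elements that embryonic and adult-type members carry there. Capitals mark matches on either strand to CACCC, which is known as a target of KLF factors, to CCAAT, the box read by NF-Y, to TATAA, the TATA box, and to GATAA, which GATA factors are known to bind. None of these matches overlapped another.
Hba-x, chr11:32276450-32276599, plus strand: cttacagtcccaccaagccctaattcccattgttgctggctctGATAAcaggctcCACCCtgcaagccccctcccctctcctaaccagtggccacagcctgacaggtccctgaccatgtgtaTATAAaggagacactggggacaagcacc
Hba-a1, chr11:32283522-32283671, plus strand: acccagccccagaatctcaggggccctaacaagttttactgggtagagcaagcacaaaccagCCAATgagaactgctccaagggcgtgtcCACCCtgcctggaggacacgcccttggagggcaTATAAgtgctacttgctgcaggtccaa
Hbb-y, chr7:103853208-103853357, minus strand: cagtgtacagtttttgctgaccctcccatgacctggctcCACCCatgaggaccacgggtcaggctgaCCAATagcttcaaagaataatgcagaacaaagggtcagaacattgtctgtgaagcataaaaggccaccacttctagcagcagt
The Hba-a2 window was identical to that of Hba-a1 over 147 bases once shifted by 3 bases. CACCC was found in all 4 windows, beginning at position -95 in Hba-x, -60 in Hba-a1, -63 in Hba-a2 and -111 in Hbb-y (counted back from the base before the start as -1), and in 37.4% of 32851 RefSeq windows of this length. CCAAT was found in the Hba-a1, Hba-a2 and Hbb-y windows (24.5% of all windows), TATAA in those of Hba-x, Hba-a1 and Hba-a2 (14.2%) and GATAA in that of Hba-x (13.3%). Hbb-bh1 and Hbb-b1 were not in the table. A match is a description of these letters, and binding was not measured.

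The deposited table gives, for each gene, the authors' mean raw reads and a normalized log2 value in each group, without values of the individual hearts. Depth per heart and the variation among hearts are therefore unknown, no test between the groups could be run, and the words higher and lower below compare group values. Listing required a fold change of at least 1.5, so that every listed gene lies past that limit in one direction. Among all listed genes, 660 were higher in hypomorphic hearts and 917 lower. Nkx2-5 was not among the listed genes, so the labels could not be checked against it.

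All 6 globin genes had more raw reads in hypomorphic than in control hearts. Hba-x had 1078911 raw reads per control heart and 1854156 per hypomorphic heart as group means, a ratio of 1.72. Hbb-bh1 had 427915 and 866274 reads in the same order, a ratio of 2.02, the highest of the family. These were the 2 members past 1.5-fold on raw reads. That limit was passed upwards by 174 listed genes, 11.0% of all listed. This base includes the 917 lower genes, so the share among the 660 higher genes was larger. The remaining embryonic gene, Hbb-y, had 2345915 and 3213609 reads, a ratio of 1.37. It was the most abundant listed gene in both groups.

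The adult-type genes differed less on raw reads. Hba-a1 had 800243 reads in the control and 1084172 in the hypomorph group, a ratio of 1.35. Hba-a2 had 725374 and 973262 reads, a ratio of 1.34. The adult alpha genes, between which reads are hard to assign, gave nearly the same ratio. Hbb-b1 was the least abundant member, with 147113 and 166582 reads, and its ratio of 1.13 was the smallest of the 6. In these whole hearts, more red cells and more globin RNA per red cell cannot be told apart.

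**Figure D1:**
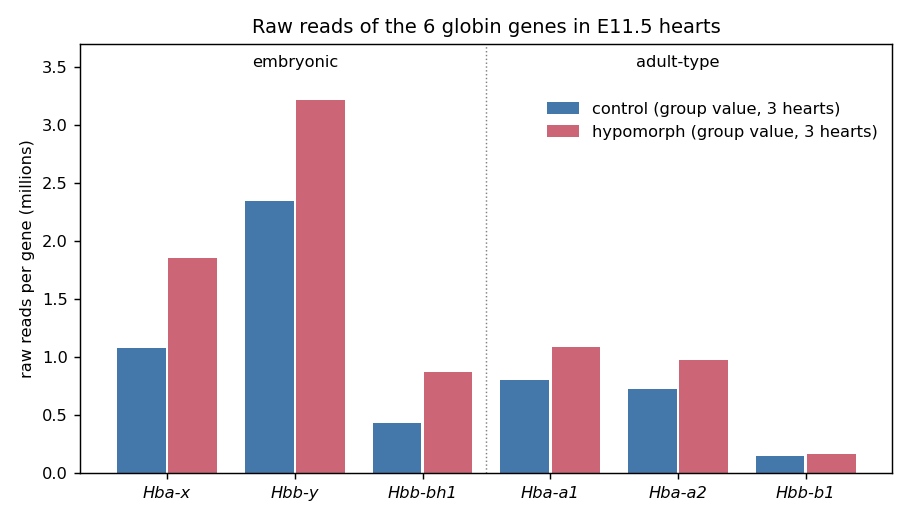
Authors' mean raw reads of the 6 globin genes (vertical axis, in units of 1e6 reads) in control and hypomorphic hearts, with 1 bar per group and no error bars because the spread between hearts is unknown. The hypomorph bar is the taller one for each gene, by a ratio of 1.13 for Hbb-b1 up to 2.02 for Hbb-bh1.

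Summed over the 6 genes, raw reads were 5525471 in control and 8158055 in hypomorphic hearts, a ratio of 1.48. The embryonic genes together gave a ratio of 1.54 and the adult-type genes 1.33. The 6 globin genes held 60.2% of the raw reads of all listed genes in control and 68.8% in hypomorphic hearts, a share of a table of changed genes and not of a library. The embryonic genes went from 42.0% to 50.1%, and the adult-type genes from 18.2% to 18.8%.

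On the authors' normalized scale the differences were larger, since that scale set hypomorphic further above control values than raw reads did. Hbb-bh1 had normalized log2 values of -0.31 in control and 1.36 in hypomorphic hearts, a difference of 1.67 or 3.18-fold. Hba-x had -0.15 and 1.26, a difference of 1.41 or 2.65-fold. The normalized differences of Hbb-y, Hba-a1 and Hba-a2 lay close together at 1.08, 1.06 and 1.05 on the log2 scale. Hbb-b1 had 0.20 and 1.07, a difference of 0.87 or 1.83-fold, again the smallest.

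All 6 genes were therefore higher by at least 1.5-fold on the normalized scale, where 41.9% of listed genes were, a count that the listing itself fixes. By at least 2-fold, 5 of 6 were higher, all but Hbb-b1, against 229 of the 660 higher genes and 14.5% of all listed genes. Among the 660 higher genes, Hbb-bh1 stood at percentile 93.6 and Hba-x at 87.6 of the normalized difference, and Hbb-b1 at 53.6.

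The normalized difference exceeded the log2 ratio of raw reads by 0.62 to 0.69 for the 6 globin genes. The median of that excess was 0.47 over all listed genes and 0.48 over the 660 higher ones, of which 14.2% had an excess at or above the lowest globin gene. The excess of the globin genes was thus larger than that of most listed genes. Whether it came from the normalization or from how the hearts were averaged was not tested. A large excess was not particular to the globin genes. Over the 44 other red cell genes described below the median excess was 0.59, with 40 above the median of the higher genes. How the authors normalized is not given in the sources used here, and whether the individual hearts differed in globin reads was not tested. Both normalized group values were above 0 in 4 of the 6 genes, all but Hba-x and Hbb-bh1. This held for 5.33% of listed genes and for 72 of the 660 higher ones.

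**Figure D2:**
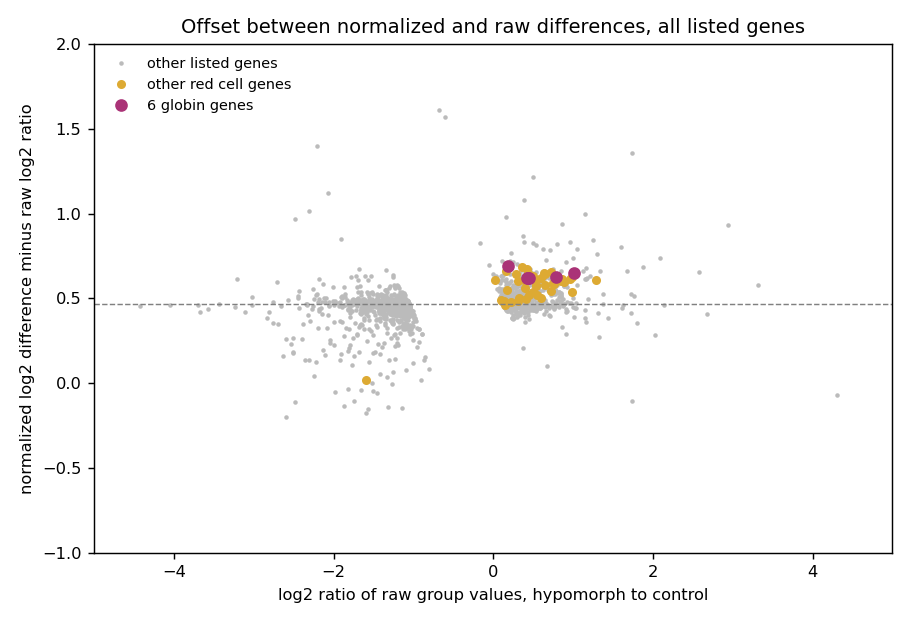
Normalized log2 difference minus the raw log2 ratio (vertical axis, log2 units) against the raw log2 ratio, hypomorph over control (horizontal axis). There is 1 point per listed gene, with the globin genes and the other red cell genes marked. The 6 globin genes sit at 0.62 to 0.69, above the dashed line at the table's median of 0.47. A few genes fall outside the axes.

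The size and count of the differences depended on the scaling. With no scaling the median log2 difference of the 6 genes was 0.45, against 1.07 on the normalized scale. Scaling to the reads of listed genes without globin gave a median of 0.43, and 2 genes past 1.5-fold. Scaling to the total of listed genes, which the globin reads dominate, gave 0.078, with 1 gene past 1.5-fold and Hbb-b1 lower in hypomorphic hearts, at -0.19. Each of these scalings shifts the raw log2 ratios of all genes by 1 constant, so the order of the genes is the same under them by construction.

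**Figure D3:**
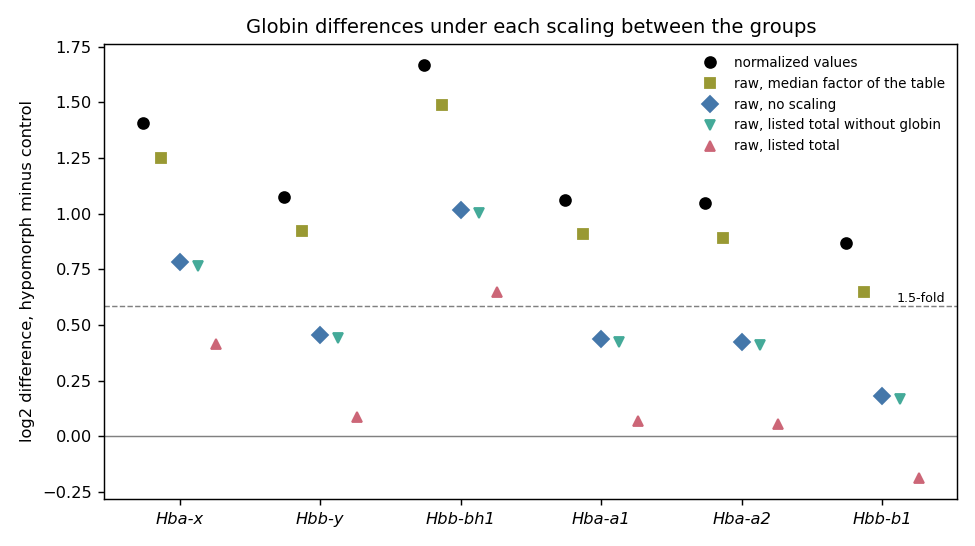
Log2 difference, hypomorph minus control (vertical axis), of each globin gene under 5 scalings between the groups, with 1 point per gene and scaling and a dashed line at 1.5-fold. All but the normalized values are raw log2 ratios shifted by 1 constant, and Hbb-b1 goes from 0.87 on the normalized scale to -0.19 when scaled to the total of listed genes.

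Comparisons within the family do not depend on a scaling common to all genes. The embryonic genes made up 69.7% of globin reads in control hearts (95% Wilson interval 69.7 to 69.8) and 72.7% in hypomorphic hearts (72.7 to 72.8), a gain of 3.01 percentage points. The intervals take the group value as a count and cover counting error only, with the spread between hearts unknown. The mean normalized log2 difference was 1.38 over the embryonic genes and 0.99 over the adult-type genes, 0.39 apart. Hbb-y did not follow the other embryonic genes, since its normalized difference of 1.08 lay next to the 1.06 of Hba-a1. Without Hbb-bh1 the embryonic genes exceeded the adult-type genes by 0.25, and without Hbb-y by 0.55. Without Hbb-y the gain in embryonic share was 7.63 points, and without Hbb-bh1 it was 2.31 points.

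Among alpha-type reads, the share of Hba-x was 41.4% in control (41.4 to 41.5) and 47.4% in hypomorphic hearts (47.4 to 47.5). The ratio of Hba-x to Hba-a1 and Hba-a2 together went from 0.707 to 0.901. The uncertain split between Hba-a1 and Hba-a2 does not enter this ratio. Hba-a1 held 52.5% and 52.7% of the adult alpha reads in control and hypomorphic hearts.

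Among beta-type reads, Hbb-bh1 went from 14.6% in control to 20.4% in hypomorphic hearts, while Hbb-y went from 80.3% to 75.7% and Hbb-b1 from 5.04% to 3.92%. The ratio of Hbb-y to Hbb-bh1 was 5.48 in control and 3.71 in hypomorphic hearts. Within both clusters, then, the earlier embryonic gene of the maturation order, Hba-x or Hbb-bh1, held a larger share in hypomorphic than in control hearts.

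**Figure D4:**
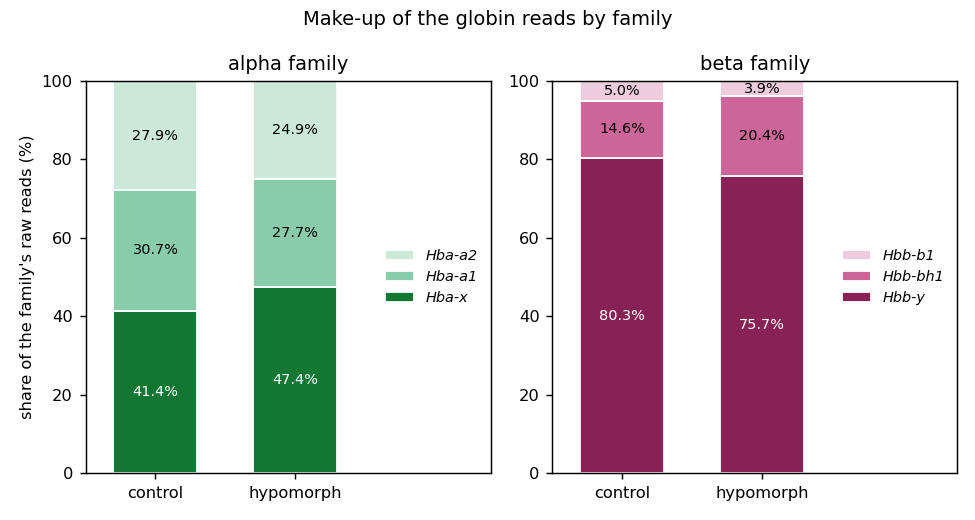
Share of each globin gene in the raw reads of its family (vertical axis, percent), stacked for control and hypomorphic hearts. The alpha family and the beta family have a panel each. Hba-x widens from 41.4% to 47.4% and Hbb-bh1 from 14.6% to 20.4%, while Hbb-y narrows from 80.3% to 75.7%.

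Alpha-type and beta-type genes moved nearly alike. Alpha-type reads were 47.1% of globin reads in control (47.1 to 47.2) and 47.9% in hypomorphic hearts (47.9 to 48.0). The alpha to beta ratio was 0.892 and 0.921 on raw reads, and 0.853 and 0.864 per kilobase of transcript. The mean normalized log2 difference was 1.17 over alpha-type and 1.20 over beta-type genes. That small gap of -0.034 turned with the genes included, from -0.20 without Hbb-b1 to 0.20 without Hbb-bh1, and the change in alpha share, 0.811 points with all 6 genes, was -2.80 points when Hbb-y was left out.

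Levels of different genes were compared as raw reads per kilobase of the longest GENCODE M1 transcript. In control hearts Hbb-y led with 3549040 reads per kilobase, followed by Hba-x with 1346955, Hba-a2 with 1309340, Hba-a1 with 1144840, Hbb-bh1 with 696930 and Hbb-b1 with 209264. In hypomorphic hearts the order was the same, from 4861739 for Hbb-y to 236959 for Hbb-b1. Which neighbours in this order differ beyond the spread between hearts cannot be judged. Hba-x and Hba-a2, neighbours in control hearts, stood further apart in hypomorphic hearts, at 2314801 and 1756792. The transcripts used for Hba-a1 and Hba-a2 were 699 and 554 bases long, and on raw reads Hba-a1 stood above Hba-a2. Their order per kilobase thus rests on annotated length and on an uncertain split of reads, as does the place of Hba-a2 next to Hba-x.

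Other red cell genes were taken from lists chosen with earlier results of these data known. Regulators of globin genes were listed for 8 of 23 names, all 8 higher, with a median normalized log2 difference of 1.23. Among them were Tal1 (1.11), a core factor of blood development, Zfpm1 (0.61), the GATA1 cofactor, and Nfe2 (0.92), which binds the beta-globin control region. Heme synthesis and iron genes were listed for 14 of 19, all 14 higher, with a median of 0.97. They included Alas2 (1.05), the red cell enzyme that begins heme synthesis, Slc25a37 (1.09), the mitochondrial iron importer, and Fth1 (0.72), the ferritin heavy chain.

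Of the genes for hemoglobin stability and gas transport, 6 of 10 were listed, all 6 higher with a median of 1.13. They included Slc4a1 (1.30), the red cell anion exchanger, Car2 (1.15), a carbonic anhydrase, and Prdx2 (0.60), a peroxiredoxin. Of the red cell membrane genes, 16 of 19 were listed, 15 higher and 1 lower with a median of 1.28. Spnb1 (1.48), Ank1 (1.34) and Ermap (1.13), which encode beta-spectrin, ankyrin and an erythroid surface protein, were higher. Tspo2 was the lower one, from 133 to 43.8 raw reads, named here after its value was seen. The median over all listed genes was -0.63, and 41.9% were higher.

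Over these 44 red cell genes the median normalized log2 difference was 1.10 and the median raw log2 ratio 0.52, close to the 1.07 and 0.45 of the globin genes. Of the 44, 43 were higher on the normalized scale, with no scaling and when scaled to the listed reads without globin, and 30 when scaled to the total of listed genes. By raw reads, 18 of 44 were past 1.5-fold upwards, against 174 listed genes, 11.0% of all listed. That base includes the 917 lower genes beside the 660 higher ones. Their summed raw reads differed by a ratio of 1.37, hypomorph over control. Globin reads per read of these genes were 6.82 in control and 7.34 in hypomorphic hearts for all 6 globin genes. The same quantity was 4.75 and 5.34 for the embryonic genes, a ratio of 1.12. For the adult-type genes it was 2.06 in control and slightly lower in hypomorphic hearts, a ratio of 0.970. Set against the membrane genes alone, the ratio was 0.970 for the embryonic and 0.837 for the adult-type genes, and against the heme genes 1.21 and 1.04. The direction of these ratios thus turned with the red cell list used.

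**Figure D5:**
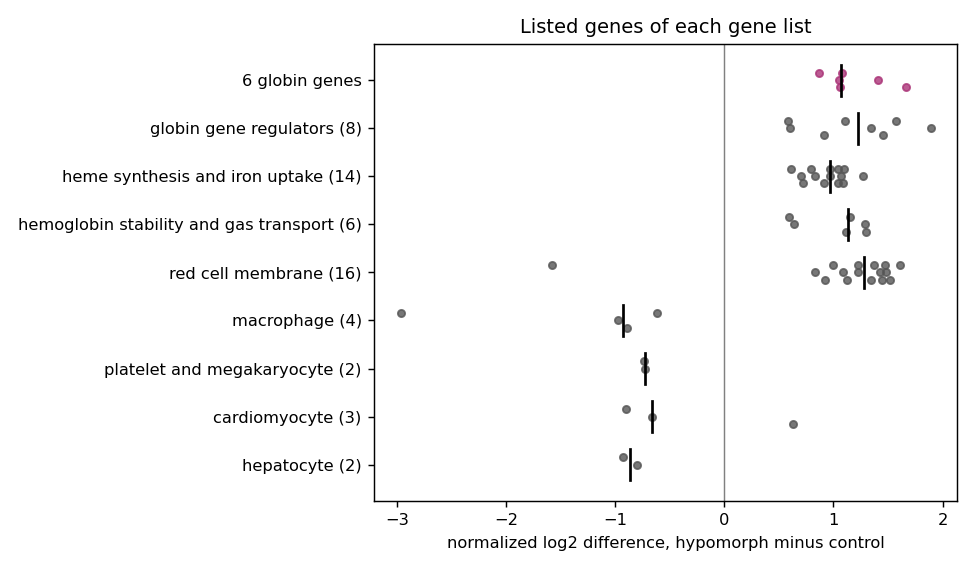
Normalized log2 difference, hypomorph minus control (horizontal axis), of listed genes in each gene list, with 1 point per gene, a bar at the median and the number of listed genes in parentheses. The 6 globin genes and the red cell lists sit to the right of 0 apart from Tspo2, and the macrophage, platelet and hepatocyte genes sit to the left.

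Listed markers of macrophages, platelets and hepatocytes were lower in hypomorphic hearts, which was also the more common direction in the table, with 58.1% of listed genes lower. Macrophage genes were listed for 4 of 12 names, all 4 lower, their summed raw reads going from 4489 to 817. Lyz2, a lysozyme gene, had 3289 and 305 reads, Mrc1, a mannose receptor gene, 743 and 287, and Emr1, which encodes the F4/80 antigen, 374 and 180. Platelet genes were listed for 2 of 11, both lower, with the platelet chemokine gene Ppbp at 2218 and 951 reads and the platelet receptor gene Treml1 at 759 and 320. Hepatocyte genes were listed for 2 of 9, the apolipoprotein genes Apoa2 at 176 and 64.3 reads and Apoa1 at 103 and 22.3, both lower. Cardiomyocyte genes were listed for 3 of 15 and went both ways, with Nppa at 178388 and 80838 reads, Pln at 58680 and 22582, and Myl7 at 176094 and 199161. No endothelial and no epicardial or fibroblast marker was listed, which in a table of changed genes says nothing of their level. The part of red cell content in the globin differences was not tested.

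Of 13 further globin gene names, only Mb was listed. The 13 included pseudogenes and Hbb-b2, which GENCODE M1 gives to the entry called Hbb-b1 here, so not all name other genes. Mb encodes myoglobin, the oxygen-binding protein of muscle, and had 10093 and 1846 raw reads in the control and hypomorph groups, a normalized log2 difference of -1.95. It went against the red cell globin genes.

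Within 200 kb of the alpha cluster, 1 of 9 other protein-coding genes was listed. That gene was Snrnp25, 67416 bases away, which encodes a protein of the minor spliceosome and had 1929 and 2294 raw reads. Within the same distance of the beta cluster, none of 24 other protein-coding genes was listed, leaving out ENSMUSG00000052305, which the entry called Hbb-b1 may count. Apart from the globin gene Hbb-bh2, those 24 were olfactory receptor genes, and the 9 near the alpha cluster included the globin genes Hbq1a and Hbq1b. The share of all annotated genes that was listed is not known here. These counts therefore do not show how far from the clusters the differences reach. Among the listed protein-coding genes whose pair of normalized values lay nearest to the globin mean were Tmem132b, Liph, Reln and Lmx1a, at distances of 0.038 to 0.108 on the log2 scale. This likeness is over 2 group values only. Their raw reads ran from 11.3 for Tmem132b to 4861 for Lmx1a in control hearts, far under the globin genes.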

How the data were processed

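RNA from whole E11.5 hearts of 3 control and 3 hypomorphic embryos was sequenced, and the authors aligned the reads to mm9 with TopHat and analysed them in Avadis NGS. Genes are listed in the authors' deposited table after passing the authors' AC test, a count test between groups, and a fold change of at least 1.5. Its raw values are the authors' group means of estimated counts per gene. Its normalized values are the authors' group values on a log2 scale, centred gene by gene on a baseline, by a method that is not given in the sources used here. The table also holds the authors' signed, log2 and absolute fold changes and directions, which were not used.

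Groups were taken from the labels. For each gene the difference of normalized values and the log2 ratio of raw values, hypomorph over control, were computed. Shares were given with 95% Wilson intervals, which cover counting error only. Depth per heart is unknown, which leaves the precision of each value unknown, and no test was possible. Coordinates, transcript lengths and coding sequences came from GENCODE M1 on mm9, and promoter windows from RefSeq on GRCm38.p6. The normalized difference and its excess over the raw log2 ratio were tested on simulated data. Shares, intervals, class differences and list counts were not tested in that way. The software was pandas 2.3.3 with numpy 2.4.6 and scipy 1.17.1 under Python 3.11.15, and plots were drawn in matplotlib 3.10.9.

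The globin genes and all lists were chosen with earlier results of these data known. The genes named were the 6 globin genes, the 3 listed genes of each list with the most raw control reads, and the 5 listed protein-coding genes nearest to the globin mean, of which 1 is not reported here. Other scalings between groups, a limit of 2-fold, medians, reads per kilobase and leaving out each globin gene were tried as alternatives.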

Additional observations from a re-analysis of the deposited data

How the results depend on the processing

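No paired analysis was possible because the table used here gives group values only. For that reason, count models for each heart and leaving out each replicate were not run. On the normalized scale 6 globin genes were past 1.5-fold and the median log2 difference was 1.07. The count and median were 2 and 0.45 with no scaling, 1 and 0.078 when scaled to the total of listed genes, and 2 and 0.43 when scaled to that total without globin. With the table's median factor the median was 0.91. Hbb-b1 turned to -0.19 when scaled to the total of listed genes. The embryonic minus adult-type difference (0.39) was 0.40 on raw reads and 0.36 with medians, and ran from 0.25 to 0.55 when 1 globin gene was left out. The alpha minus beta difference (-0.034) was -0.0025 on raw reads and -0.017 with medians, and ran from -0.20 to 0.20. The gain in embryonic share (3.01 points) ran from 2.31 to 7.63 points, and that in alpha share (0.811 points) was 0.306 per kilobase and 0.681 with normalized differences, and ran from -2.80 to 2.55. The gain in globin share of listed reads (8.66 points) was 8.85 among protein-coding genes.

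Unknown depth and spread between hearts limit every value. The table holds only genes called changed, so a gene that is not listed has no value here. The split between Hba-a1 and Hba-a2, and the adult beta gene counted as Hbb-b1, are uncertain.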
